A study of Homo sapiens with 12 samples.

Results

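HPGD and 7 other genes of prostaglandin metabolism (PTGS1, PTGS2, PTGES, PTGES2, PTGES3, SLCO2A1 and PTGR1) were followed through 12 RNA-seq libraries. The 8 genes were taken by symbol from a table of 26641 genes, and all 8 had a row. They were picked with their recruitment-against-control values in both fusions already known, so those values are described below without a test. PTGS2 was too low for the filter on low counts in every comparison, SLCO2A1 was too low in the dCas9-KRAB lines, and the remaining members passed everywhere.

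The libraries came from NCCIT, a human embryonal carcinoma line, carrying a doxycycline-inducible nuclease-dead Cas9 (dCas9) fused either to VPR, a strong transcriptional activator (CRISPRa), or to KRAB, a repressor domain (CRISPRi). Each fusion was combined with 1 of 3 arrays of 12 guides. LTR5HS Sp carried guides to LTR5HS, the long terminal repeats of the youngest HERVK retroviruses, on the S. pyogenes scaffold (recruitment); LTR5HS Sa carried them on the S. aureus scaffold, which the S. pyogenes dCas9 does not use; and nontarget Sp carried guides without a genomic target. The LTR5HS Sa and nontarget Sp lines are the controls. All lines, controls included, were PiggyBac-transfected populations selected with puromycin and G418 and induced with doxycycline for 4 days, so each fusion and array is represented by 1 line and 2 libraries.

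Prostaglandins are short-lived lipid signals. Phospholipases release arachidonate from membranes, the cyclooxygenases PTGS1 and PTGS2 turn it into the common precursor, and terminal synthases such as PTGES, PTGES2 and PTGES3 make PGE2 from it. The signal ends when the transporter SLCO2A1 carries prostaglandins into the cell, HPGD (15-hydroxyprostaglandin dehydrogenase) oxidises them, and reductases such as PTGR1 act on the product; PTGR1 also inactivates leukotriene B4.

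Library totals ranged from 13601701 to 24840708 counts in 11 libraries and reached 69797411 in the last, and log2 CPM correlated at 0.986 to 0.992 between the replicates of a line. In CPM (counts scaled to TMM library sizes), all 10 embryonal carcinoma markers averaged more than 1 in every combination of fusion and arm, but their summed level was 1137 to 1745 CPM in the dCas9-VPR libraries and 4978 to 6582 CPM in the dCas9-KRAB libraries. Blood markers summed to at most 0.891 CPM. The 6 fibroblast markers summed to 3019 to 3130 CPM with dCas9-VPR recruitment against 110 to 175 CPM in its controls, nearly all of it COL1A1 (up to 3006 CPM), while COL1A2 stayed at or below 0.267 CPM. The 4 colon and airway markers summed to 10.7 to 12.1 CPM with dCas9-VPR recruitment against 0.645 to 1.91 CPM in its controls, nearly all of it CDX2, and KRT20 was at 0 in every library. The 6 trophoblast markers summed to 310 to 359 CPM with dCas9-VPR recruitment (controls 369 to 492 CPM) and to 321 to 372 CPM with dCas9-KRAB recruitment (controls 133 to 203 CPM), and the 4 endothelial markers to 4.49 to 15.3 CPM over all libraries. The part of these differences in the values below was not tested. LTR5HS transcripts and the dCas9 fusions were not analysed here.

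The LTR5HS guides match the genome next to HPGD. HPGD lies on the minus strand at chr4:174490175-174523154 (hg38; GENCODE 44) and is transcribed from position 174522488. Requiring an exact match of the 16-base guide followed by an NGG motif (the PAM read by S. pyogenes Cas9), 13 sites of 6 guides fell within 1 Mb of that start. They formed 3 clusters, all downstream of HPGD, centred 121.1, 138.8 and 142.0 kb from its start. The sites of the farthest cluster, at chr4:174380355-174380611, are shown because every guide in them also matched in the middle cluster at chr4:174383355-174383982; capitals mark the PAM.
LTR5HS-7, minus strand, chr4:174380355-174380373: aaccttggacaataccTGG
LTR5HS-8, plus strand, chr4:174380444-174380462: taaagggtctgtgctgAGG
LTR5HS-9, minus strand, chr4:174380530-174380548: gacattccattgcccaGGG
LTR5HS-3, plus strand, chr4:174380593-174380611: aaaactgccttagggcTGG
The cluster nearest to HPGD, at chr4:174401086-174401712, held sites of LTR5HS-7 and LTR5HS-9 as above and the 2 sites below. They are shown because LTR5HS-2 matched nowhere else within 1 Mb of HPGD.
LTR5HS-2, plus strand, chr4:174401331-174401349: aaaaccgccttagggcTGG
LTR5HS-11, plus strand, chr4:174401694-174401712: gaaacgcccacaggtgTGG
None of the 12 nontarget guides had an exact site anywhere, against 2938 sites of the LTR5HS guides in 950 clusters, 648 of which held at least 2 guides. Of 25005 genes with a known start, 7.72% lay as near to such a multi-guide cluster as HPGD or nearer. The paper predicts that these guides also match part of the related HERVK repeats LTR5A and LTR5B. The repeat class of each cluster, also near HPGD, and its binding by dCas9 were not examined here.

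None of the other 7 members lay as near as HPGD to a multi-guide cluster. PTGES3 came closest at 134 kb, with a cluster of 2 sites within 32 bp upstream of its start. The nearest cluster was 486 kb upstream of SLCO2A1, 773 kb downstream of PTGR1, 941 kb upstream of PTGS1 and 1604 kb upstream of PTGES. For PTGS2 and PTGES2 it lay 2071 and 3230 kb upstream. No LTR5HS guide matched any of the 35116 promoters in the RefSeq table (250 bases before each start).

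The HPGD promoter at the start given above is shown because HPGD is the member with the highest dCas9-VPR value and no guide site lies in it. It covers chr4:174522489-174522738, minus strand, hg38, from RefSeq; capitals mark CATAAAAG, letters picked after reading the sequence.
HPGD promoter: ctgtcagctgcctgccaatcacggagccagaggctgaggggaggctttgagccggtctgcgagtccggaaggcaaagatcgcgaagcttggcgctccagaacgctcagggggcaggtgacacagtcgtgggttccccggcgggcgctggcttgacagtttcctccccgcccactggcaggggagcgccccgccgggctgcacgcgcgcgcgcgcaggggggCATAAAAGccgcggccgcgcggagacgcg
These 250 bases are 70.8% G or C and hold 29 CpG dinucleotides, against medians of 58.0% and 11 over all promoters in the table. CATAAAAG occurred on the strand of the gene in 0.533% of the promoters and on either strand in 0.911%, and TATAAA, which this promoter lacks, occurred on either strand in 10.7%. Another RefSeq promoter of HPGD, at chr4:174522894-174523143, differs from the one shown. It is 42.0% G or C, holds 4 CpG dinucleotides and lacks CATAAAAG, and no guide site lies in it either.

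Without recruitment, the members covered a wide range of levels, compared here as RPKM (CPM divided by gene length in kb) within the 4 control libraries of each fusion. PTGES3, which also serves as the HSP90 co-chaperone p23, was highest in both, with a median of 90.2 RPKM with dCas9-VPR and 162 RPKM with dCas9-KRAB. PTGR1 followed at 35.9 and 41.8 RPKM, and PTGES2 at 34.2 and 26.1 RPKM. The ranges of PTGR1 and PTGES2 overlapped with dCas9-VPR and did not with dCas9-KRAB. PTGES, the inducible PGE2 synthase of membranes, came next in both fusions, at 6.05 and 0.986 RPKM. The order of the remaining members depended on the fusion. In the dCas9-VPR controls PTGS1 (2.25 RPKM) lay above SLCO2A1 (0.622 RPKM) without overlap. HPGD (0.267 RPKM) overlapped SLCO2A1 there, and its highest library, LTR5HS Sa replicate 1, reached into the PTGS1 range. In the dCas9-KRAB controls HPGD (0.663 RPKM) overlapped PTGES above it and PTGS1 (0.388 RPKM) below it, and SLCO2A1 (0.0669 RPKM) was lower than both without overlap. PTGS2 was lowest in both fusions, at 0.0698 and 0.0154 RPKM, and its range overlapped no other member's.

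**Figure D1:**
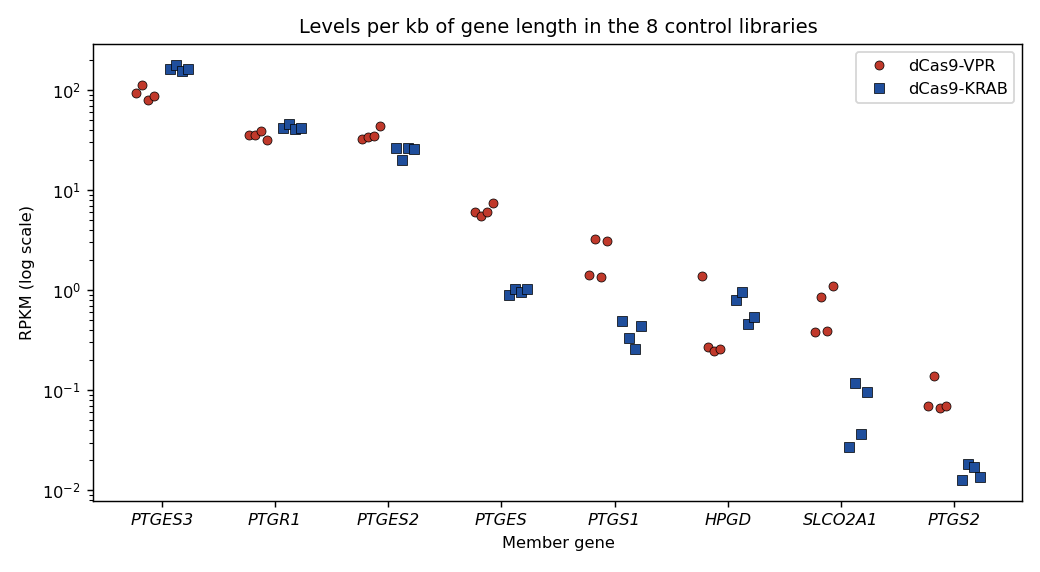
Level of each member in RPKM (log axis) in the 4 dCas9-VPR control libraries (circles) and the 4 dCas9-KRAB control libraries (squares), members ordered by their median over all 8. PTGES3 sits at 80.3 to 179 RPKM, and PTGES, PTGS1 and SLCO2A1 are higher in every dCas9-VPR control library than in any dCas9-KRAB control library. The share of all genes with that order was not counted.

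HPGD showed the largest difference among the members when dCas9-VPR was recruited. It measured 386 and 347 CPM in the 2 dCas9-VPR LTR5HS Sp libraries. The controls gave 4.24 and 0.745 CPM with LTR5HS Sa and 0.826 and 0.788 CPM with nontarget Sp. Both recruitment libraries were therefore far above all 4 controls, and 3 of the 4 controls lay close together while LTR5HS Sa replicate 1 stood apart from them. The fitted log2 fold change was 7.74 ± 0.55 (SE), or 214-fold, the 15th highest of 16271 genes tested with dCas9-VPR. It was 7.15 against LTR5HS Sa alone, 8.82 against nontarget Sp alone and 8.86 without LTR5HS Sa replicate 1. In bulk RNA, more cells expressing a gene and more RNA per cell cannot be told apart.

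Per kb of length, HPGD went from a mean of 0.545 ± 0.570 RPKM in the dCas9-VPR controls (SD, n = 4) to 121 ± 9.03 RPKM with recruitment (SD, n = 2). In rank by mean RPKM among 23246 genes with at least 1 count, HPGD was number 14218 in those controls and number 464 with recruitment. It was above PTGES3 (75.3 ± 5.52 RPKM, SD, n = 2) and so had the highest level per length of the 8 members in the dCas9-VPR LTR5HS Sp libraries, whereas in the control libraries of both fusions it was below PTGES3, PTGR1 and PTGES2.

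With dCas9-KRAB recruitment HPGD was near the detection limit. The LTR5HS Sp libraries held 10 and 1 HPGD counts, or 0.560 and 0.0677 CPM. The controls gave 2.39 and 1.40 CPM with LTR5HS Sa and 2.93 and 1.62 CPM with nontarget Sp. Both recruitment libraries were below every control. The fitted log2 fold change was -2.64 ± 0.59 (SE), or 6.22-fold lower, the 107th lowest of 15520 genes tested with dCas9-KRAB. Summed over libraries, 11 counts stood against 238 counts, a control-to-recruitment ratio of 5.85. Its exact 95% Clopper-Pearson interval of 3.21 to 11.9 covers counting error only, not the spread between libraries. The interval is a description and not a test, since HPGD was chosen with these values known. The size of this difference moved with single libraries: the log2 value was -1.89 without LTR5HS Sp replicate 2 and -4.86 without LTR5HS Sp replicate 1. A lncRNA, ENSG00000251584, overlaps HPGD on the opposite strand, and the described library preparation does not mark strand, so reads of the pair cannot be told apart.

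PTGR1 differed little between recruitment and control. It measured 47.1 and 45.7 CPM with dCas9-VPR recruitment, 56.7 and 60.9 CPM with LTR5HS Sa and 56.6 and 50.4 CPM with nontarget Sp. The recruitment libraries were below all 4 controls but close to the lowest of them, with a log2 fold change of -0.27 ± 0.11 (SE). With dCas9-KRAB the 6 libraries lay between 62.6 and 71.8 CPM and the ranges overlapped, with a log2 fold change of -0.03 ± 0.11 (SE). ZNF483 overlaps PTGR1 on the opposite strand, so these reads too cannot be assigned with certainty.

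SLCO2A1, the uptake transporter, was higher with dCas9-VPR recruitment than in either control line. It measured 12.1 and 13.4 CPM with LTR5HS Sp, 1.61 and 1.64 CPM with LTR5HS Sa, and 3.61 and 4.68 CPM with nontarget Sp. The 3 lines did not overlap, and nontarget Sp lay between the others. The log2 fold change against both control lines was 2.15 ± 0.40 (SE), or 4.45-fold, and 2.96 against LTR5HS Sa alone. The difference from nontarget Sp was smaller, with line means of 12.7 CPM for LTR5HS Sp and 4.15 CPM for nontarget Sp. In the dCas9-KRAB lines SLCO2A1 was too low for the filter, at 0.560 and 0.677 CPM in the LTR5HS Sp libraries (10 counts each), 0.114 and 0.155 CPM in LTR5HS Sa and 0.495 and 0.409 CPM in nontarget Sp. Both recruitment libraries were above every control there as well, at levels of few counts.

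The cyclooxygenase PTGS1 was lower with dCas9-VPR recruitment. It measured 1.73 and 1.87 CPM with dCas9-VPR recruitment, 8.03 and 7.75 CPM with LTR5HS Sa, and 18.6 and 17.7 CPM with nontarget Sp. The 3 lines again did not overlap, and the control lines stood well apart from each other. The log2 fold change was -2.84 ± 0.47 (SE), or 7.17-fold lower, the 61st lowest value in that comparison, and -2.14 against LTR5HS Sa alone. With dCas9-KRAB the LTR5HS Sp libraries gave 1.62 and 1.29 CPM, which overlapped the control values of 1.47 to 2.79 CPM, and the log2 fold change was -0.59 ± 0.32 (SE).

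PTGS2, the inducible cyclooxygenase, was barely detected. Its counts were 7 and 1 with dCas9-VPR recruitment and 6 to 12 in the dCas9-VPR controls, and 5 and 1 with dCas9-KRAB recruitment and 1 to 4 in the dCas9-KRAB controls. The ranges overlapped in both fusions, and no difference was detectable at this depth. PACERR, an antisense RNA at the PTGS2 start, averaged at most 0.0835 CPM in any combination of fusion and arm.

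Among the PGE2 synthases, PTGES was lower with dCas9-VPR recruitment, at 5.84 and 3.95 CPM against 10.7 and 10.9 CPM with LTR5HS Sa and 9.86 and 13.2 CPM with nontarget Sp. Both recruitment libraries were below every control, and the control lines overlapped. The log2 fold change was -1.19 ± 0.22 (SE), or 2.28-fold lower. With dCas9-KRAB the values were 1.46 and 1.08 CPM against 1.59 to 1.85 CPM in the controls, again without overlap, and the log2 fold change was -0.45 ± 0.28 (SE).

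PTGES2 and PTGES3 showed smaller differences. PTGES2 measured 88.3 and 96.5 CPM with dCas9-VPR recruitment and 77.8 to 105 CPM in its controls, and 53.1 and 74.2 CPM with dCas9-KRAB recruitment and 48.3 to 64.1 CPM in its controls. Its ranges overlapped in both fusions, with log2 fold changes of 0.09 ± 0.14 and 0.09 ± 0.17 (SE). PTGES3 measured 269 and 243 CPM with dCas9-VPR recruitment against 273 to 379 CPM in the controls, just below them without overlap, a log2 fold change of -0.30 ± 0.13 (SE). With dCas9-KRAB it gave 587 and 459 CPM against 524 to 609 CPM in overlapping ranges, with a log2 fold change of -0.09 ± 0.12 (SE). PTGES3 has pseudogene copies, so its reads may be shared with them and its level is less certain than that of the others.

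**Figure D2:**
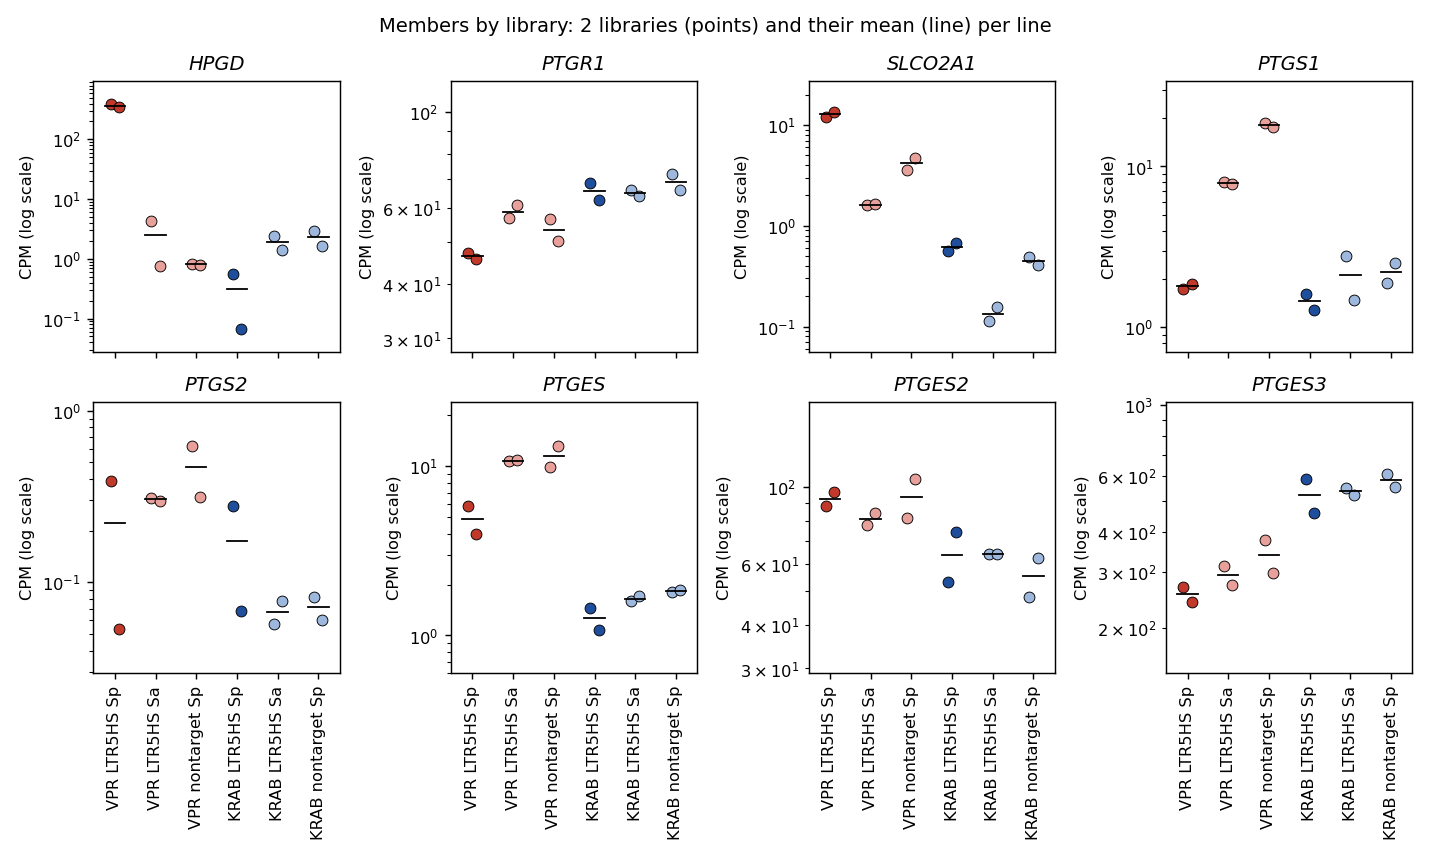
CPM of each member (log axis, a separate scale in each panel) in the 6 lines, with both libraries as points and their mean as a line; dark points are LTR5HS Sp (recruitment), light points the controls, red dCas9-VPR and blue dCas9-KRAB. HPGD at 386 and 347 CPM with dCas9-VPR recruitment stands far above its controls, PTGS1 steps down from nontarget Sp to LTR5HS Sp, and PTGES2 overlaps between recruitment and control in both fusions.

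Counted by an adjusted p below 0.05 (edgeR quasi-likelihood test, Benjamini-Hochberg over all genes tested), 4 of the 7 members tested with dCas9-VPR were called, HPGD and SLCO2A1 higher and PTGS1 and PTGES lower, against 28.0% of all genes called in that comparison (15.7% higher, 12.3% lower). With dCas9-KRAB 1 of 6 was called, HPGD, against 2.77% of all genes (0.831% higher, 1.94% lower), and that call was absent in 5 of 13 alternative analyses. Since the members were chosen on these values, nothing is read from either count. Ranges of recruitment and control libraries did not overlap for 49.9% of all genes with dCas9-VPR (25.5% above, 24.4% below) and for 23.3% with dCas9-KRAB.

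The choice of members did not rest on comparing the 2 control lines of a fusion with each other, although the same libraries serve as the controls above. These lines carry different arrays, and array and line cannot be told apart. In the dCas9-VPR lines 2 of 7 members differed between LTR5HS Sa and nontarget Sp, both lower with LTR5HS Sa, against 4.51% of all genes (1.90% higher, 2.61% lower). PTGS1 was lower, with a log2 fold change of -1.18 ± 0.17 (SE; adjusted p = 0.00677, edgeR quasi-likelihood test), or 2.26-fold. SLCO2A1 was lower, at -1.33 ± 0.24 (SE; adjusted p = 0.018, edgeR), or 2.52-fold. Both libraries of one line were beyond both of the other for each gene, an order whose share over all genes was not counted. Neither call held without LTR5HS Sa replicate 1 (adjusted p = 0.0617 for PTGS1 and 0.122 for SLCO2A1, edgeR) or without LTR5HS Sa replicate 2 (0.0692 and 0.110), and that of SLCO2A1 was lost without nontarget Sp replicate 2 (0.058).

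HPGD differed between these control lines by 1.67 ± 0.67 (SE; adjusted p = 0.224, edgeR), which did not pass. With the replicate number as a block the value was 1.65 ± 0.49 (SE) and passed (adjusted p = 0.0266, edgeR). The difference rested on LTR5HS Sa replicate 1, with 95 HPGD counts against 15 or 16 in each of the other 3 dCas9-VPR control libraries; without it the log2 value was -0.09, and without LTR5HS Sa replicate 2 it was 2.40 (adjusted p = 0.00709, edgeR). The 4 other members tested differed by -0.19 to 0.16 on the log2 scale. In the dCas9-KRAB lines 0 of 6 members differed between the arrays by edgeR, 0 at an unadjusted p below 0.05 and 0 by DESeq2, against 0.567% of all genes (0.258% higher, 0.309% lower). The log2 values ran from -0.19 for HPGD to 0.21 for PTGES2, with SEs of 0.12 to 0.48.

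The controls of the 2 fusions differed in most members. Comparing 4 dCas9-VPR with 4 dCas9-KRAB control libraries, with the array as a covariate, 6 of 7 members were called, 4 higher and 2 lower with dCas9-VPR, against 57.7% of all genes (28.3% higher, 29.4% lower). SLCO2A1 was higher by a log2 fold change of 3.30 ± 0.25 (SE; adjusted p = 3.33e-06, edgeR), PTGES by 2.69 ± 0.16 (9.26e-07) and PTGS1 by 2.51 ± 0.26 (2.4e-05). For these 3 genes all 4 dCas9-VPR control libraries were above all 4 dCas9-KRAB control libraries. The share of all genes with that order was not counted. PTGES2 was higher by 0.56 ± 0.13 (adjusted p = 0.00304, edgeR).

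PTGES3 was lower with dCas9-VPR, at a log2 fold change of -0.81 ± 0.09 (SE; adjusted p = 3.62e-05, edgeR), and PTGR1 at -0.24 ± 0.09 (adjusted p = 0.0377, edgeR), a call that held in 6 of 13 alternative analyses (adjusted p from 0.0302 to 0.112). HPGD differed by -0.47 ± 0.54 (SE; adjusted p = 0.48, edgeR) and did not pass. Without LTR5HS Sa replicate 1 of dCas9-VPR it was lower, at -1.40 (adjusted p = 0.00461, edgeR). Fusion and cell line cannot be told apart here, and all 10 embryonal carcinoma markers were lower in the dCas9-VPR controls, with a median log2 value of -2.37; their part in these member differences was not tested.

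The genes around HPGD were taken by position alone, as the 8 table genes whose start lies within 1 Mb of that of HPGD. HAND2-AS1, HAND2, MIR4276, GLRA3, LOC101928551 and ADAM29 were too low to test. The remaining neighbours, FBXO8 (an F-box protein) and CEP44 (a centrosome protein), start next to each other about 239 kb downstream of the HPGD start, 96.8 and 96.6 kb beyond the farthest guide cluster. They are thus nearer to a multi-guide cluster than HPGD is.

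With dCas9-VPR neither neighbour was called. FBXO8 averaged 9.28 ± 0.576 CPM with recruitment and 7.83 ± 1.43 CPM in the controls (SD, n = 2 and 4), a log2 fold change of 0.25 ± 0.20 (SE; adjusted p = 0.396, edgeR). CEP44 averaged 11.2 ± 0.283 against 12.8 ± 1.74 CPM, a log2 fold change of -0.19 ± 0.17 (adjusted p = 0.436, edgeR). Recruitment and control ranges overlapped for both. With dCas9-KRAB both were below every control library without passing: CEP44 had a log2 fold change of -0.60 ± 0.16 (adjusted p = 0.101, edgeR; 0.0204 by DESeq2) and FBXO8 of -0.40 ± 0.18 (adjusted p = 0.374, edgeR). Of the 2 tested, 0 were called by edgeR in either fusion, 1 had an unadjusted p below 0.05 (CEP44 with dCas9-KRAB), and DESeq2 called 0 with dCas9-VPR and 1 with dCas9-KRAB.

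**Figure D3:**
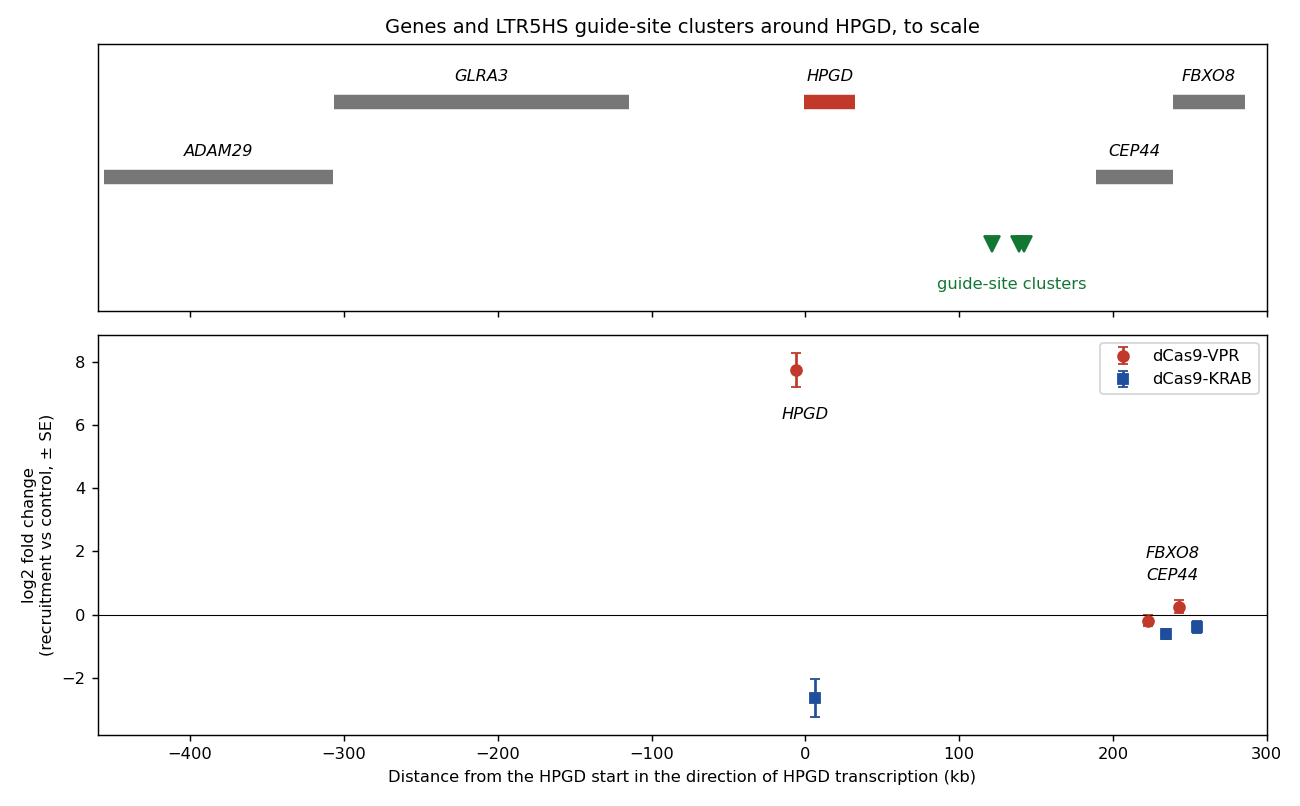
Upper panel: genes (bars, to scale) and the 3 clusters of LTR5HS guide sites (triangles) by distance from the HPGD start in kb, positive in the direction of HPGD transcription. Lower panel: log2 fold change of recruitment against control (± SE) for the 3 genes tested, placed at their starts and drawn apart sideways for legibility, circles dCas9-VPR and squares dCas9-KRAB; HPGD sits at 7.74 and -2.64, and CEP44 and FBXO8 between -0.60 and 0.25.

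Over all genes, nearness to a multi-guide cluster went with the recruitment values. Of 1372 genes tested with dCas9-VPR that lay as near as HPGD or nearer, 50.1% were called higher, against 12.5% of 14450 genes farther away, and HPGD had the 7th highest fold change of the near genes. With dCas9-KRAB 18.4% of 1263 near genes were called lower, against 0.440% of 13850 farther genes, and HPGD had the 62nd lowest value of the near genes. The 7 other members belong to the farther genes.

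The 5 genes whose log2 CPM was most like that of HPGD over the 12 libraries were CEACAM19 (Pearson r = 0.986), HOXD4 (0.977), HOXD-AS2 (0.977), DLL3 (0.976) and CST1 (0.975), given as a description since these libraries share lines and arrays. All 5 had higher values with dCas9-VPR recruitment (log2 fold changes of 2.07 to 8.47) and lower values with dCas9-KRAB recruitment (-0.67 to -2.11). Nothing is read from these directions, since the genes were chosen for sharing the HPGD pattern in these libraries. For CST1 the dCas9-KRAB value was -1.20 ± 0.94 (SE), and its recruitment and control ranges overlapped. A multi-guide cluster lay 76.8 kb from the start of CEACAM19, 18.9 kb from that of DLL3 and 5.71 kb from that of CST1, but 5888 and 5873 kb from those of HOXD4 and HOXD-AS2. LTR5HS Sa replicate 1, the dCas9-VPR control library that stood apart for HPGD, was also the highest dCas9-VPR control library for all 5 genes. CST1 measured 10.8 CPM there against 0.596 to 1.34 CPM in the other dCas9-VPR controls, and CEACAM19 6.11 against 4.99 to 5.31 CPM. Their choice by likeness to HPGD used this library too, and the cause was not tested. The 5 other members tested with both fusions had r between -0.68 (PTGR1) and 0.35 (PTGES2) with HPGD.

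The rest of the pathway was described by 48 further genes of arachidonate release, prostanoid synthesis, breakdown, transport, reception and the lipoxygenase branch. Of these, 35 passed the filter with dCas9-VPR and 25 with dCas9-KRAB. With dCas9-VPR recruitment 12 of 35 changed, 7 higher and 5 lower (11 by DESeq2), near the 28.0% of all genes (15.7% higher, 12.3% lower). The median log2 fold change was -0.19 against -0.02 over all genes tested. Each group below holds at most 9 genes tested with dCas9-VPR, and nothing is read from the counts by group. With dCas9-KRAB recruitment 0 of 25 changed by edgeR, 4 had an unadjusted p below 0.05 and 2 passed by DESeq2, against 2.77% of all genes; the median was -0.02 against 0.00.

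Of the 3 other transporters, the organic anion carriers SLCO2B1 and SLCO3A1 rose with dCas9-VPR recruitment and the exporter ABCC4 did not pass. SLCO2B1 went from 0.620 ± 0.479 CPM in the controls (SD, n = 4) to 9.18 ± 1.27 CPM (SD, n = 2), a log2 fold change of 3.90 ± 0.51 (SE; adjusted p = 0.000844, edgeR). The control lines stood apart for SLCO2B1, at 0.357 and 0.149 CPM with LTR5HS Sa and 1.24 and 0.736 CPM with nontarget Sp, and the log2 value was 5.11 against the former and 3.21 against the latter alone. Between these lines SLCO2B1 did not pass (adjusted p = 0.0628, edgeR) but did with the replicate block (0.00456). SLCO3A1 went from 18.5 ± 1.57 to 56.7 ± 9.66 CPM, a log2 fold change of 1.62 ± 0.14 (adjusted p = 9.33e-05, edgeR). For both genes, as for SLCO2A1, both recruitment libraries were above all 4 controls; 25.5% of all genes showed that order.

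Of the 8 prostanoid synthase genes tested, 3 fell with dCas9-VPR recruitment and 0 rose, against 12.3% lower and 15.7% higher of all genes. PTGIS, the prostacyclin synthase, fell by 1.86 on the log2 scale (SE 0.36; adjusted p = 0.00636, edgeR), from 2.00 ± 0.477 to 0.546 ± 0.0157 CPM. PTGDS, the prostaglandin D2 synthase that also circulates as a lipid carrier, fell by 1.29 (SE 0.30; adjusted p = 0.0151, edgeR). TBXAS1, the thromboxane synthase, fell by 2.78 (SE 0.85; adjusted p = 0.0417, edgeR; 0.0594 with the replicate block), on 3 counts in all with recruitment against 49 in the controls, a control-to-recruitment ratio of 7.40 with an exact counting interval of 2.39 to 37.1. Leaving out LTR5HS Sp replicate 1 removed the calls of PTGIS and PTGDS (adjusted p = 0.0553 and 0.123, edgeR), and leaving out replicate 2 those of PTGIS and TBXAS1 (0.0599 and 0.218). The TBXAS1 call was also lost without LTR5HS Sa replicate 1 (adjusted p = 0.0777, edgeR), LTR5HS Sa replicate 2 (0.0644) or nontarget Sp replicate 2 (0.0600). The size of the TBXAS1 value also moved, from -6.60 without LTR5HS Sp replicate 1 to -1.82 without LTR5HS Sp replicate 2. TBXAS1 passed the filter on low counts only through its control libraries, so its dCas9-VPR p-value is not read as support.

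Among 5 genes of arachidonate release tested, 2 rose and 1 fell with dCas9-VPR. PLA2G4A, the cytosolic phospholipase that frees arachidonate, rose by 1.87 ± 0.33 on the log2 scale (SE; adjusted p = 0.00384, edgeR), from 0.991 ± 0.264 to 3.65 ± 1.38 CPM, and lost the call without LTR5HS Sp replicate 1 (adjusted p = 0.058, edgeR). PLA2G6, a calcium-independent phospholipase, rose by 0.53 ± 0.16 (adjusted p = 0.0403, edgeR), a call held in 7 of 14 alternatives (adjusted p from 0.0154 to 0.288) and lost when any single library other than LTR5HS Sa replicate 2 was left out. PLA2G15, a lysosomal phospholipase, fell by 0.50 (SE 0.16; adjusted p = 0.0432, edgeR), a call lost when any single library other than nontarget Sp replicate 1 was left out (adjusted p up to 0.239). Among 4 genes of breakdown and reduction tested, the reductase ZADH2 rose by 0.62 ± 0.19 (adjusted p = 0.0435, edgeR; 0.0509 with the replicate block), a call lost when any single library other than LTR5HS Sa replicate 2 was left out (adjusted p up to 0.282).

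Of 6 receptors tested with dCas9-VPR, 1 rose and 1 fell. PTGER4, the EP4 receptor of PGE2, rose by 2.21 ± 0.45 on the log2 scale (SE, adjusted p = 0.0075, edgeR) but stayed below 1 CPM in every library. The call was lost without LTR5HS Sp replicate 2. PTGER4 had 30 counts in the 2 recruitment libraries and 14 in the 4 controls. It passed the filter on low counts only through the recruitment libraries, so its p-value is not read as support. TBXA2R, the thromboxane receptor, fell by 1.95 (SE 0.37; adjusted p = 0.00554, edgeR), and lost the call without LTR5HS Sp replicate 2 (0.056). Of 9 lipoxygenase and leukotriene genes tested, ALOX15, which oxygenates arachidonate at carbon 15, was the one called and rose by 2.28 ± 0.27 (adjusted p = 0.000479, edgeR), from 1.47 ± 0.382 to 7.17 ± 0.0140 CPM.

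None of the 12 called pathway genes lay as near to a multi-guide cluster as HPGD. Of all genes with a known start 7.72% lay that near, and of the 35 pathway genes tested 3 did, so nothing is read from this count. The distances of the 12 called genes ran from 361 kb (TBXAS1) to 7597 kb (PTGIS), with a median of 2404 kb. The 3 tested pathway genes nearer than HPGD, ABCC4, ALOX12 and PTGDR2, did not pass in the dCas9-VPR comparison, with log2 fold changes of -0.01 ± 0.11, -0.30 ± 0.17 and 0.84 ± 0.44 (SE).

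**Figure D4:**
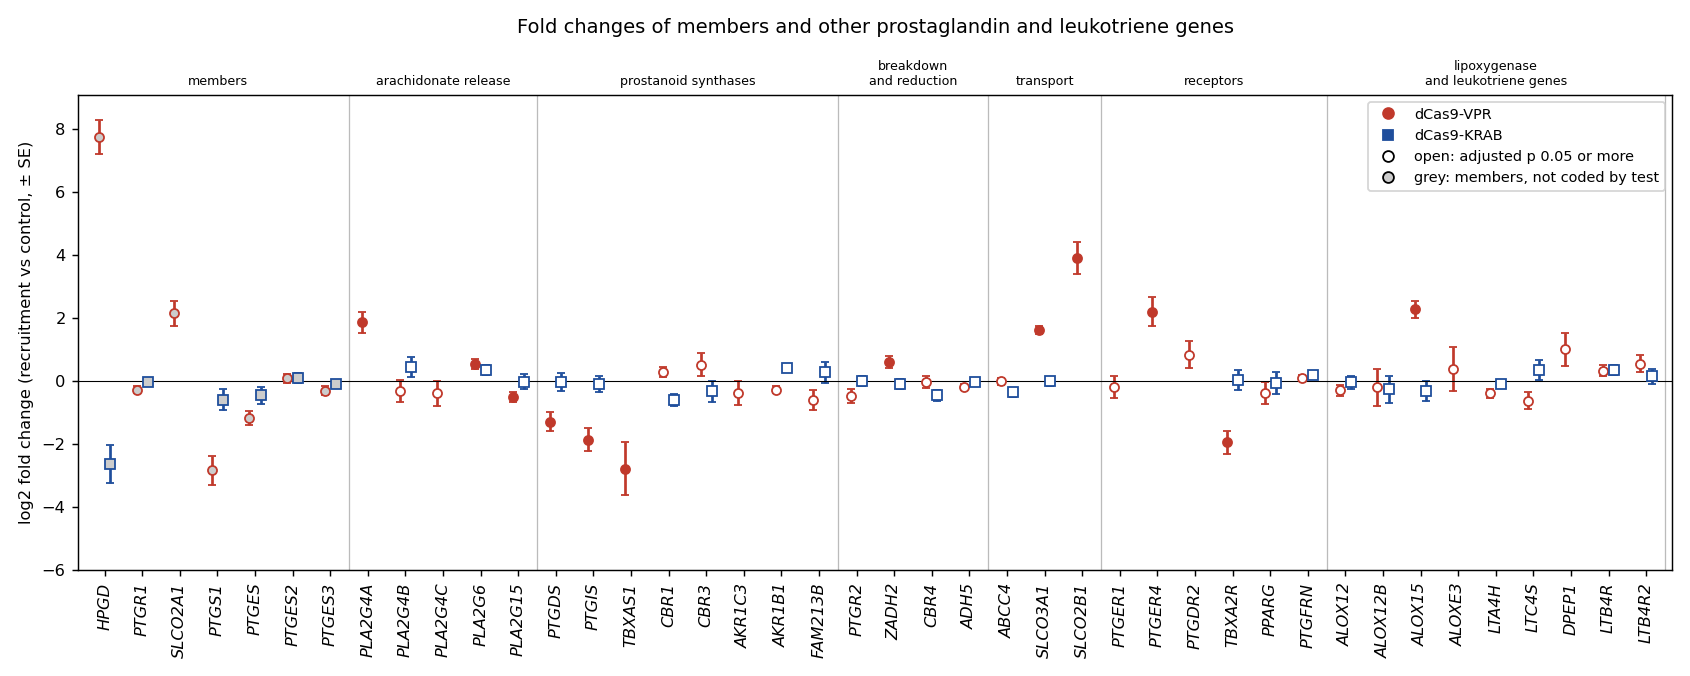
Log2 fold change of recruitment against control (± SE) for the members (grey fill, not coded by a test) and the pathway genes tested, grouped by role; circles are dCas9-VPR and squares dCas9-KRAB, filled where the adjusted p was below 0.05. HPGD has the largest values in both fusions (7.74 and -2.64), SLCO2A1, SLCO3A1 and SLCO2B1 lie above 0 with dCas9-VPR, PTGDS, PTGIS and TBXAS1 lie below 0, and no pathway gene is filled for dCas9-KRAB.

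The difference between the recruitment effects of the fusions was tested for the pathway genes and neighbours as an interaction over all 12 libraries. It passed for 11 of 35 pathway genes against 21.0% of all genes (11.5% higher, 9.53% lower), and for 0 of the 2 neighbours (FBXO8 adjusted p = 0.0975 and CEP44 0.233, edgeR; 1 of the 2 at an unadjusted p below 0.05 and 0 by DESeq2). SLCO2B1, SLCO3A1, ALOX15, PLA2G4A, PTGIS, PTGDS, TBXAS1 and TBXA2R were among the 11. For SLCO2B1, PLA2G4A and TBXAS1 the dCas9-KRAB effect rests on few counts, too low for the filter within the dCas9-KRAB lines. Of 5 alternatives the call of PTGDS was lost in 1 (adjusted p up to 0.0621 across edgeR and DESeq2 fits) and that of ZADH2 in 2 (up to 0.0766). PTGER4 and PLA2G6 were not among the 11 (adjusted p = 0.125 and 0.617, edgeR).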

How the data were processed

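RNA-seq of poly(A) RNA was read from the authors' table of deposited raw counts per gene, with a column of gene lengths that the authors' counting tool wrote (per the file headers), used for RPKM. Per the submitters' processing notes and the study's methods, reads were called with CASAVA 1.8, trimmed with cutadapt 1.8.1, aligned with HISAT2 2.1.0 to hg38 and assigned with featureCounts 1.4.6-p2; the counting annotation and strand setting are not given in the sources used here.

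The members and gene lists were chosen with earlier results of these data known. Genes passing filterByExpr were fitted with edgeR 4.0.16 (TMM, glmQLFit, glmQLFTest; R 4.3.3), separately for the 6 libraries of each fusion, recruitment (n = 2) against both control arrays (n = 4). The study's methods name DESeq2, run here (1.42.0) as an alternative. p-values were Benjamini-Hochberg adjusted over all genes tested. Control arrays were compared 2 against 2, and fusions 4 against 4 in controls. Replicates were independent biological replicates of 1 line per group, so p-values cover the spread within these lines. Scripts were tested on simulated data. Depth was 13601701 to 69797411 counts; 3 counts correspond to 0.043 to 0.221 CPM, a limit for counting error only.

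The labels number the replicates and state no pairing. Within a fusion all 6 same-numbered pairs deviated together (r = 0.181 to 0.375). The main fits held no replicate block, which was run as an alternative. Named were all members, the 10 called pathway genes with the smallest adjusted p, tested neighbours within 1 Mb, and the 5 genes most like HPGD (log2 CPM, prior count 2); PLA2G15, ZADH2, CBR1, AKR1B1, FAM213B, ABCC4, ALOX12 and PTGDR2 were named after their values were seen. The pathway symbol PRXL2B was matched as FAM213B. Guide sites were exact 16-base matches with NGG; sites within 1 kb formed a cluster. Positions are from GENCODE 44. RefSeq promoters held 7 of 8 members, without SLCO2A1. Alternatives were DESeq2 size factors, DESeq2, no filter, at least 10 counts per library, the block, single control arrays, all libraries in one fit, a 500 kb window and leaving out each library.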

Additional observations from a re-analysis of the deposited data

Results flagged for a closer look

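Outlying libraries were sought among the 4 control libraries of each fusion for the 8 members; chance would mark about 1 in 20 of the 16 tests (Dixon's ratio, 95% level). HPGD stood at 4.24 CPM in dCas9-VPR LTR5HS Sa replicate 1, against a mean of 0.786 ± 0.0404 CPM in the other 3 (SD). PTGS2 stood at 0.619 CPM in dCas9-VPR nontarget Sp replicate 1, which is 12 counts. PTGES2 stood at 48.3 CPM in dCas9-KRAB nontarget Sp replicate 1, below its other controls.

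For 11 pathway genes the recruitment effects of the fusions differed (interaction over 12 libraries, edgeR quasi-likelihood test). The dCas9-VPR effect exceeded the dCas9-KRAB effect on the log2 scale by 5.72 for SLCO2B1 (adjusted p = 0.0106, edgeR), 2.61 for ALOX15 (0.000408), 2.32 for PLA2G4A (0.00654), 1.63 for SLCO3A1 (8.85e-05), 0.90 for CBR1 (0.0109) and 0.70 for ZADH2 (0.0485). It was lower for TBXAS1 (-4.02; adjusted p = 0.0156, edgeR), TBXA2R (-1.97; 0.0121), PTGIS (-1.78; 0.00807), PTGDS (-1.25; 0.0466) and AKR1B1 (-0.68; 0.00676). Those of ZADH2 and PTGDS were lost in 2 and 1 of 5 alternatives (adjusted p up to 0.0766 and 0.0621). SLCO2B1, PLA2G4A and TBXAS1 were too low for the filter within the dCas9-KRAB lines. Their dCas9-KRAB counts were 2, 12 and 14 with recruitment against 25, 61 and 23 in the controls. The SEs of their differences were 1.39, 0.52 and 1.05. CBR1 and AKR1B1 were not called in either fusion alone: CBR1 had log2 fold changes of 0.29 and -0.61, and AKR1B1 of -0.28 and 0.40, with dCas9-VPR and dCas9-KRAB.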

How the results depend on the processing

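No result reversed its direction past the threshold. Leaving out single libraries aside, the HPGD value with dCas9-VPR was 8.82 against nontarget Sp alone and 7.15 against LTR5HS Sa alone. The count of members called with dCas9-KRAB went from 1 to 0 with DESeq2 size factors and with all 12 libraries in one fit; it was also 0 with at least 10 counts in every library, a filter that removes HPGD (1 count in LTR5HS Sp replicate 2) untested. The pathway count with dCas9-KRAB went from 0 to 2 with DESeq2 and to 2 with all 12 libraries in one fit, and the neighbour count from 0 to 1 with DESeq2.

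Leaving out each library gave 3 to 4 members called with dCas9-VPR, 0 to 1 with dCas9-KRAB (0 without LTR5HS Sa replicate 1, LTR5HS Sp replicate 2 or nontarget Sp replicate 2), 0 to 2 between the dCas9-VPR control arrays, 0 to 0 between those of dCas9-KRAB and 5 to 6 between fusions. Pathway counts with dCas9-VPR were 5 to 11 (6 without LTR5HS Sp replicate 1 and 5 without replicate 2). HPGD ranged from 7.50 to 8.86 with dCas9-VPR and from -4.86 to -1.89 with dCas9-KRAB. The cause of these shifts was not tested.

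With the replicate block TBXAS1 and ZADH2 lost and FAM213B gained a call with dCas9-VPR recruitment (adjusted p = 0.0265, edgeR); between the dCas9-VPR control arrays HPGD, SLCO2B1, LTA4H, LTB4R, ALOX12B and ALOXE3 gained one (0.00456 to 0.0325). Across fusions 7 of 9 same-numbered pairs exceeded r = 0.1 (0.057 to 0.333), short of all, so pairing there was not settled; with the block AKR1B1 gained a call between fusions (0.0406) and LTC4S in the interaction (0.0491). These are all the calls of members, pathway genes and neighbours that the block changed. Low counts limit PTGS2, TBXAS1 and HPGD with dCas9-KRAB.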
